A study of Mus musculus with 12 samples.

Results

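Expression of 42 genes of the DNA damage checkpoint and of DNA repair was compared between metastasizing and non-metastasizing mouse small cell lung cancer (SCLC) cells. The members were chosen by name and fall into 9 pathway groups: damage sensing and mediators, checkpoint effector kinases, homologous recombination, the Fanconi anaemia pathway, non-homologous end joining, mismatch repair, base excision and single-strand break repair, nucleotide excision repair, and direct reversal. All 42 were found by symbol among the 24458 gene rows of the RNA sequencing table. SMC (SCLC metastasizing cells) are lines from a sort for high NCAM with little or no CD44, and they grow as floating spheres. Non-SMC are lines from the opposite gate, low NCAM with high CD44, and they grow attached. Both kinds came from lung tumors of mice with floxed Rb1 and Trp53 alleles (the RP model, Rb1L/L Trp53L/L), in which intratracheal adenovirus carrying CMV-driven Cre starts the tumors. The mice were of a mixed C57Bl/6, Balb-c and S129 background, and the cultures were untreated in RPMI1640 with 10% serum. By the labels SMC#1 is paired with Non-SMC#1 (pair 1) and SMC#2 with Non-SMC#2 (pair 2), and each of the 4 lines has 3 libraries. Nothing states that these were separate cultures, so p-values rest on a spread among libraries that may be only technical.

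Cells answer DNA damage in layers. Sensor complexes bind the lesion and activate the kinases ATM and ATR, mediator proteins spread the signal along chromatin, and the effector kinases CHEK1, CHEK2 and WEE1 hold back cyclin-dependent kinases while repair proceeds by a route that depends on the lesion. RB1 and p53 act downstream of this signal to stop the cell cycle, and SCLC, which has usually lost both, depends heavily on the remaining checkpoints at the start of S phase and mitosis.

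The values are FPKM, fragment counts divided by transcript length and by the size of the library, so that levels can be compared between genes. The values of a library summed to 289158 to 360102 FPKM in SMC and to 363103 to 427958 FPKM in non-SMC. Scaling to the same sum, used below, therefore raises SMC values relative to non-SMC values. From the spacing of low values the libraries held an estimated 28600000 to 44200000 fragments, and libraries of a line correlated across genes at 0.983 to 0.997 (Spearman), SMC with non-SMC libraries at 0.634 to 0.659. The summed level of 7 neuroendocrine markers was 1486 to 2137 FPKM in SMC libraries, against 18.8 to 75.9 FPKM in non-SMC libraries, with Sez6 listed at 0 in every non-SMC library. Conversely, 7 fibroblast markers summed to 0.601 to 3.999 FPKM in SMC libraries, against 518 to 2166 FPKM in non-SMC libraries, and Col1a2 was listed at 0 in every SMC library. Leukocyte markers (7 genes) summed to 0.959 to 2.57 FPKM in SMC and 0.974 to 4.96 FPKM in non-SMC libraries, with Cd3e listed at 0 throughout. Of 5 endothelial markers, which summed to 11.9 to 18.1 FPKM in SMC and 0.0474 to 0.246 FPKM in non-SMC libraries, Vwf gave nearly the whole sum. Not every fibroblast marker followed that sum. Dcn averaged 3.18 FPKM in SMC#1 against 0.287 FPKM in Non-SMC#1, and 0.297 FPKM in SMC#2 against 27.3 FPKM in Non-SMC#2. Lum reached at most 0.0615 FPKM in any library. The neuroendocrine and fibroblast sums thus move with every comparison of the classes, and their part in the results was not tested. Trp53 RNA averaged 7.32 and 7.42 FPKM in SMC#1 and SMC#2, against 3.37 and 3.36 FPKM in Non-SMC#1 and Non-SMC#2, and Rb1 RNA averaged 3.86 and 3.05 FPKM, against 0.956 and 0.745 FPKM. A value for a whole gene does not test whether its floxed exons are deleted. The paper reports from genotyping that Rb1 and Trp53 were both deleted in the sorted cells of both kinds.

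The repair and checkpoint genes were expressed in all 4 lines at middling levels. Their median over the 12 libraries was 9.27 FPKM, beside 9.94 FPKM for the 13122 rows that passed the filter of at least 1 FPKM in at least 3 libraries. All 42 members passed, and 41 of them reached 1 FPKM in every library. The exception was Mgmt, which passed through Non-SMC#2 alone and therefore had to differ. Parp1, the abundant nuclear enzyme that marks strand breaks with poly(ADP-ribose), stood highest at a mean of 62.3 FPKM, ahead of Msh6 at 40.2 FPKM and Xrcc6 at 38.5 FPKM. At the low end, Ddb2 averaged 2.35 FPKM and Prkdc 2.38 FPKM.

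To ask whether the 2 kinds of cell differ in this gene set, each gene was fitted with limma on log2(FPKM + 1) with a mean per line, and p-values were adjusted by the Benjamini-Hochberg method over all 13122 rows. A gene was called at an adjusted p under 0.05. The added 1 FPKM shrinks the difference of a gene with a low level. Averaged over the pairs, 24 of 42 members (57.1%) were higher in SMC, beside 44.7% of all rows, and 10 (23.8%) were lower, beside 42.4% of all rows. Mgmt, whose direction the filter had fixed, is among the 10. The median log2 difference was 0.27 over the members and 0.024 over all rows, and 27 members lay above the median of all rows. All 6 SMC libraries exceeded all 6 non-SMC libraries for 15 members, beside 28% of all rows, and lay below them for 2 members, Bard1 and Ogg1, beside 27.1% of all rows. In bulk RNA, fewer cells of a type and less RNA per cell cannot be told apart.

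Most of these differences were small. Only Chek1 and Ogg1 reached a log2 difference of 1 in the average over pairs, whereas 35.3% of all rows were called with a difference that large. Scaling the libraries to the same sum moved the median of all rows to 0.25 and that of the members to 0.48, a gap of 0.23 between them, beside 0.24 without that scaling. The members' split then became 31 higher and 4 lower, with 53.6% and 33.8% of all rows, and the average falls of Rad50, Chek2, Fanca and Ercc1 were no longer called. With the line as the unit (2 lines per class), 1 member was higher and 1 lower, Chek1 (adjusted p = 0.0311) and Ogg1 (adjusted p = 0.04998), and 8.49% and 9.72% of all rows were called.

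**Figure D1:**
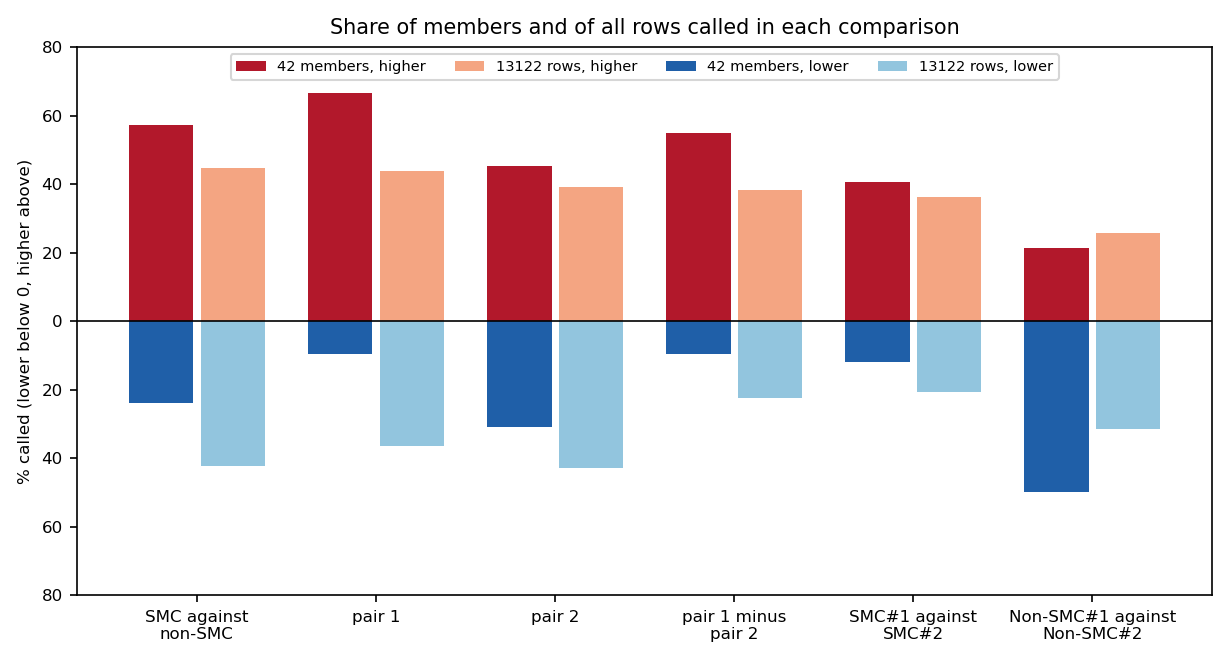
Share of rows called (adjusted p under 0.05, y axis, in percent) as higher (above 0) or lower (below 0) for the 42 members (dark bars) and for all 13122 rows (pale bars) in each of 6 comparisons (x axis). The members' higher bar exceeds that of all rows in 5 comparisons, at 57.1% beside 44.7% in the average over pairs, and falls below it between the non-SMC lines, at 21.4% beside 25.8%.

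The counts of members called differed between the pairs. The median of the members exceeded that of all rows by 0.23 in pair 1 and 0.20 in pair 2 on the log2 scale. With same-sum scaling these gaps were 0.23 and 0.24. In pair 1, 28 members were higher in SMC#1 than in Non-SMC#1, beside 43.9% of all rows, and 4 were lower, beside 36.5%. In pair 2, 19 members were higher in SMC#2 than in Non-SMC#2, beside 39.2% of all rows, and 13 were lower, beside 42.8%. The 13 include Mgmt, which the filter had fixed in direction. With the same-sum scaling that split in pair 2 was 27 higher and 7 lower, and with median-ratio scaling it was 23 and 10. Across the pairs, 18 members were higher in both (32% of all rows were) and 2 were lower in both (30.2% of all rows). Rad50, Xrcc6, Prkdc and Lig4 were higher in pair 1 and lower in pair 2, a pattern of 4.31% of all rows. Of these 4, Rad50 held that pattern under same-sum scaling, where the fall of Xrcc6, Prkdc and Lig4 in pair 2 was no longer called and that of Prkdc changed sign.

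The difference between the pairs was itself tested as an interaction, the signed SMC minus non-SMC value of pair 1 less that of pair 2. The signed value was higher in pair 1 for 23 members, beside 38.2% of all rows, and lower in pair 1 for 4 members (Nbn, Mdc1, Fancb and Parp1), beside 22.5%. A higher signed value is not a larger change: Xrcc5, Chek2, Fanca, Fancd2, Fanci and Ercc1 are among the 23 and were called lower in pair 2 alone. So was Mgmt, whose direction was fixed by its passing the filter through Non-SMC#2 alone. With the same-sum scaling the counts were 14 and 5 members, beside 27.7% and 29.6% of all rows. The median signed value was 0.34 over the members and 0.16 over all rows, and 0.15 and -0.035 with that scaling. Non-SMC#1 was above Non-SMC#2 for 9 members, beside 25.8% of all rows, and below it for 21, beside 31.5%. SMC#1 was above SMC#2 for 17 members, beside 36.2% of all rows, and below it for 5, beside 20.6%. These comparisons use the same libraries as the pair differences.

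**Figure D2:**
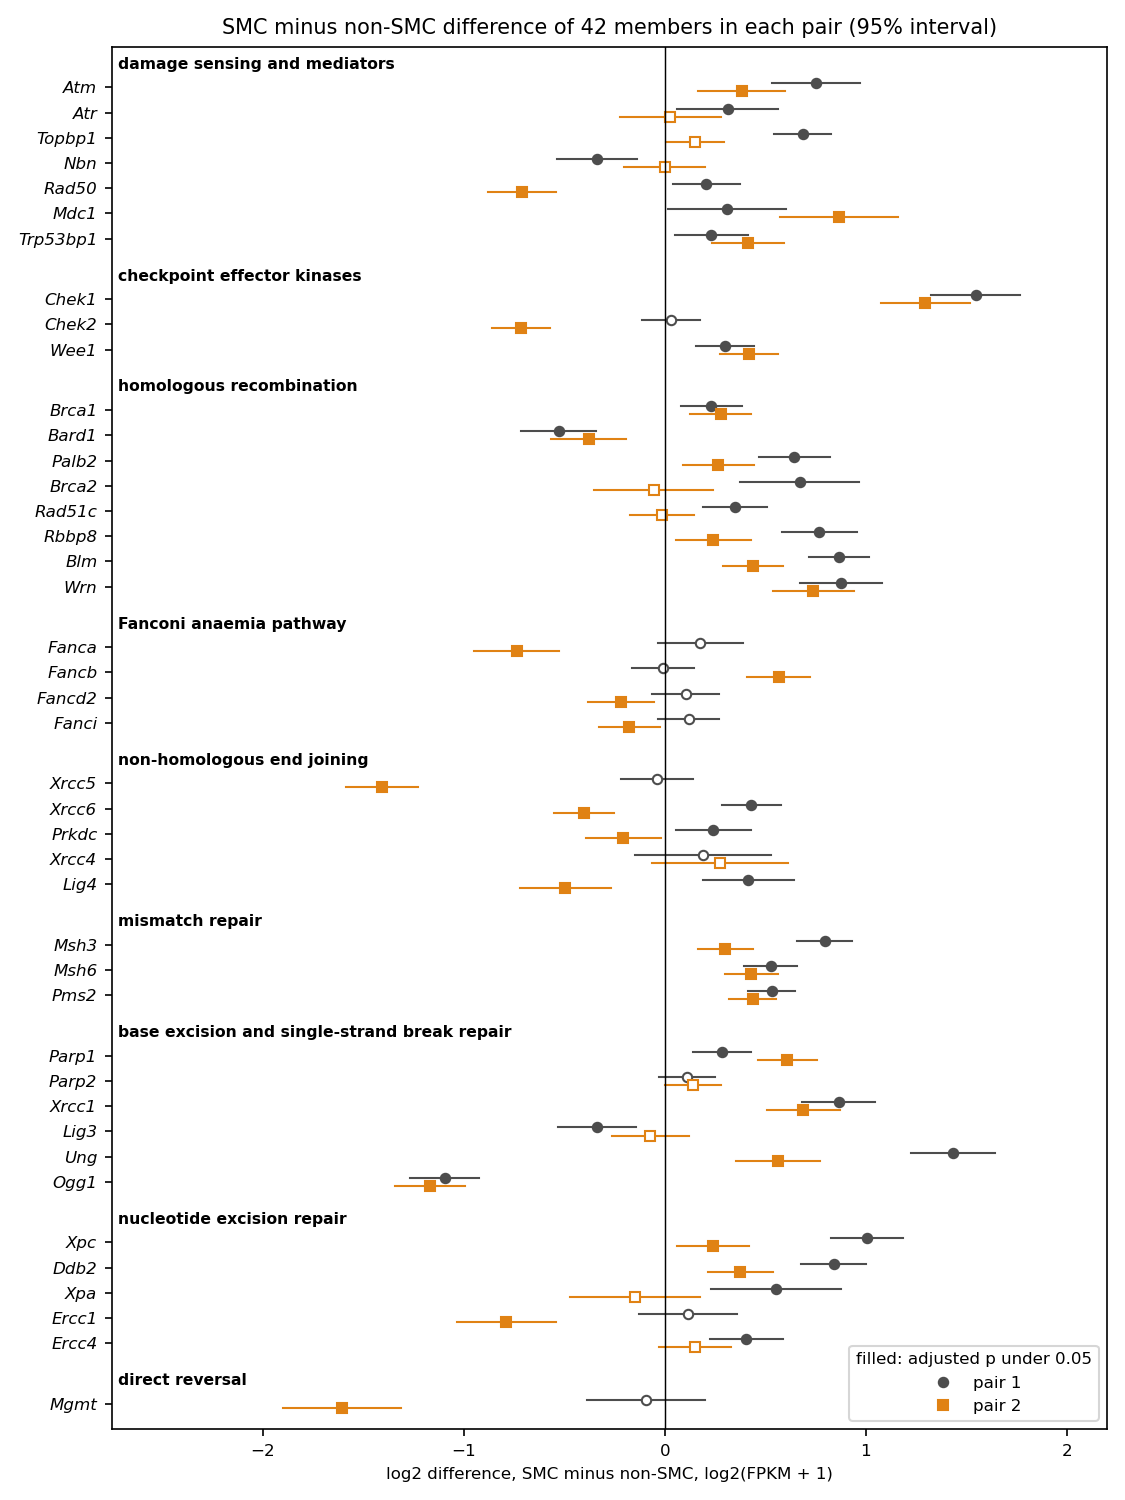
Log2 difference, SMC minus non-SMC (x axis, log2(FPKM + 1)), of each of the 42 members (y axis, by pathway group) in pair 1 (circles) and pair 2 (squares) with 95% intervals; filled marks are called. Mismatch repair genes lie right of 0 in both pairs (0.30 to 0.80), Ogg1 and Bard1 lie left in both, and end joining genes lie apart, with Xrcc5 at -0.037 in pair 1 and -1.41 in pair 2; in pair 2, same-sum scaling moved Nbn, Brca2, Rad51c, Fancd2, Fanci, Prkdc, Lig3 and Xpa from below to above 0.

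Several genes of this set are known targets of E2F factors, the DNA-binding proteins that RB1 holds back until S phase. Promoters from RefSeq (GRCm38.p6) were matched for 33 of the 42 members, and the 250 bases before the start were searched on both strands for the E2F-like motifs TTTCCCGC, TTTGGCGC and TTTGGCGG. No stretch can match more than 1 of the 3 on the same strand. TTTCCCGC was found in 5 of the 33 members, beside 1.03% of 27025 genes, TTTGGCGC in 1 member, beside 0.485%, and TTTGGCGG in none, beside 0.503%. The CCAAT box was found in 14 of the 33 and in 37.5% of genes, and TTTGAA in 1 (Bard1) and 18.3%. The 6 windows with an E2F-like motif are shown because their genes did not share a direction. Each is written on the gene's own strand with the motif in capitals, which reads GCGGGAAA where it lies on the other strand.
Bard1 (chr1:71103163-71103192, minus strand): ccgccgctcagTTTCCCGCtcaggaagttt
Brca2 (chr5:150522442-150522471, plus strand): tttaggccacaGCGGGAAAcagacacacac
Chek2 (chr5:110839820-110839849, plus strand): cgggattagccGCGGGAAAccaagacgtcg
Mdc1 (chr17:35841468-35841497, plus strand): ttttcttcagcctgTTTCCCGCcggtagcc
Msh3 (chr13:92355187-92355216, minus strand): ttgccgtcaagTTTGGCGCgaaatcgcagc
Xrcc6 (chr15:82016312-82016341, plus strand): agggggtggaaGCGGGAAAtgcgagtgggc
The Mdc1 motif lay 9 to 16 bases before the annotated start and the Bard1 motif 202 to 209 bases before it. Averaged over the pairs, Brca2, Mdc1 and Msh3 were higher in SMC, Bard1 and Chek2 were lower, and Xrcc6 was not called. The calls of Chek2 and Brca2 were lost with same-sum scaling and quantile normalization, in that order, and with either of these Xrcc6 was called higher. The motif matches are a description of letters, and binding was not measured here.

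Among damage sensors and mediators, 4 of 7 members were higher in SMC over both pairs (Atm, Topbp1, Mdc1 and Trp53bp1), beside 44.7% of all rows, and Rad50 and Nbn were lower, beside 42.4%. These shares are near the background for so few genes. Atr, the kinase that answers stalled replication, averaged 4.07 and 4.53 FPKM in SMC#1 and SMC#2, against 3.06 and 4.45 FPKM in Non-SMC#1 and Non-SMC#2, a log2 difference of 0.17 (adjusted p = 0.0661 in limma). Atm, the kinase that answers double-strand breaks, averaged 6.26 and 6.78 FPKM in SMC#1 and SMC#2, against 3.30 and 5.00 FPKM in Non-SMC#1 and Non-SMC#2. Topbp1, which activates ATR, was the most abundant of the group and averaged 40.8 and 37.2 FPKM, against 24.9 and 33.5 FPKM. Its log2 difference was 0.69 in pair 1 and 0.15 in pair 2 (adjusted p = 5.61e-07 and 0.0532 in limma), and the pairs differed by 0.54. In pair 2 Topbp1 was called higher with same-sum scaling (0.51), median-ratio scaling (0.22) and quantile normalization (0.45). Trp53bp1, the mediator 53BP1 that protects broken ends from trimming, averaged 9.55 and 12.9 FPKM, against 7.98 and 9.49 FPKM, and its pair 1 call was lost with median-ratio scaling (adjusted p = 0.147) and quantile normalization (0.0602). Tubgcp4 on the opposite strand shares 15% of its exon length and averaged 11.3 FPKM in SMC, against 14.8 FPKM in non-SMC.

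Mdc1 (mm9 chromosome 17, 35978443 to 35996615) encodes the mediator that binds phosphorylated H2AX and holds the MRN complex at breaks. It had 18.4, 18.4 and 17.2 FPKM in SMC#1, against 14.5, 14.8 and 13.6 FPKM in Non-SMC#1. In pair 2 it had 19.7, 22.0 and 19.4 FPKM in SMC#2, against 8.15, 10.6 and 14.1 FPKM in Non-SMC#2. Every SMC library was above every non-SMC library, and the Non-SMC#2 libraries were the most scattered. The log2 difference was 0.31 ± 0.14 in pair 1 and 0.87 ± 0.14 in pair 2 (SE, adjusted p = 0.0492 and 5.63e-05 in limma). The pair 1 call was lost with a pseudocount of 0.1, with median-ratio scaling (adjusted p = 0.158) and with the replicate block (adjusted p = 0.0565).

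Rad50 (mm9 chromosome 11, 53463021 to 53520821) encodes the ATPase of the MRN complex, which tethers broken ends. Its libraries held 13.9, 14.7 and 14.7 FPKM in SMC#1, against 12.9, 12.3 and 11.96 FPKM in Non-SMC#1. They held 10.2, 10.4 and 10.7 FPKM in SMC#2, against 19.4, 18.4 and 15.4 FPKM in Non-SMC#2. The lines did not overlap within either pair, and the order was opposite in the 2 pairs. Log2 differences were 0.21 ± 0.08 in pair 1 and -0.71 ± 0.08 in pair 2, and the difference between pairs of 0.92 ± 0.11 was called (SE, adjusted p = 1.06e-05 in limma). The rise in pair 1 was not called with median-ratio scaling (adjusted p = 0.16).

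All 3 subunits of MRN were called lower in SMC in the average over pairs, but the call of Rad50 was lost with same-sum scaling. Only Mre11a was called lower in both pairs, and in pair 1 Rad50 was higher while the other subunits were lower. Differences between subunits were not tested. Nbn, the subunit that recruits ATM, averaged 11.5 FPKM in SMC#1 against 14.7 FPKM in Non-SMC#1, and 9.63 FPKM in SMC#2 against 9.71 FPKM in Non-SMC#2. Its average fall of 0.17 on the log2 scale turned into a rise of 0.071 with same-sum scaling and was lost without SMC#1 replicate 1, Non-SMC#1 replicate 1 or SMC#2 replicate 2 (adjusted p = 0.0692, 0.0521 and 0.0627 in limma). Mre11a, the nuclease subunit, which is not a member, averaged 8.44 ± 1.18 FPKM in SMC, against 13.8 ± 1.56 FPKM in non-SMC (SD, n = 6 each). Its log2 differences were -0.39 and -0.91 in pairs 1 and 2. Here and below, n counts libraries, 3 from each of 2 lines, so the SD mixes the spread within and between lines.

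The 16 further genes listed for this group had 11 higher and 3 lower in SMC, with a median log2 difference of 0.35. Here and for each further list below, 44.7% of all rows were higher and 42.4% lower. H2afx, the histone variant that ATM phosphorylates beside breaks, averaged 162 ± 16.5 FPKM in SMC, against 62.7 ± 8.27 FPKM in non-SMC. Atrip, the partner that brings ATR to single-stranded DNA, averaged 8.87 ± 0.713 FPKM in SMC, against 4.71 ± 0.318 FPKM in non-SMC (SD, n = 6 each). Rad9a, a subunit of the clamp that activates ATR together with TOPBP1, fell by 0.83 on the log2 scale.

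Among the effector kinases, the ATR target Chek1 and the mitotic brake Wee1 were higher in SMC of both pairs, and the ATM target Chek2 was lower in SMC of pair 2. Chek1 (mm9 chromosome 9, 36516067 to 36534243) had 16.5, 16.9 and 16.5 FPKM in SMC#1, against 5.09, 5.05 and 4.95 FPKM in Non-SMC#1. It had 20.6, 18.0 and 20.02 FPKM in SMC#2, against 8.92, 7.36 and 6.02 FPKM in Non-SMC#2. The SMC libraries lay far above the non-SMC libraries in both pairs, with no overlap. This was the largest rise of any member in the average over pairs, a log2 difference of 1.42 ± 0.07 (SE, adjusted p = 4.36e-10 in limma), and the pairs did not differ detectably (0.25, 95% interval -0.061 to 0.56).

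Wee1, which phosphorylates the mitotic cyclin-dependent kinase to keep it inactive, averaged 14.96 and 17.5 FPKM in SMC#1 and SMC#2, against 11.97 and 12.8 FPKM in Non-SMC#1 and Non-SMC#2. Its log2 differences were 0.30 and 0.42, and the groups did not overlap. Pkmyt1, the membrane-bound relative of Wee1, had a log2 difference of -0.37 and lost its call with same-sum scaling (adjusted p = 0.166).

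Chek2 (mm9 chromosome 5, 111269036 to 111303152) had 7.45, 7.09 and 7.11 FPKM in SMC#1, against 6.53, 6.90 and 7.76 FPKM in Non-SMC#1. It had 6.16, 5.85 and 6.36 FPKM in SMC#2, against 10.9, 10.4 and 10.7 FPKM in Non-SMC#2. The first pair overlapped, and Non-SMC#2 stood above the other 3 lines. The log2 difference was 0.030 (95% interval -0.11 to 0.17) in pair 1 and -0.71 (-0.86 to -0.57) in pair 2, and the pairs differed by 0.74 ± 0.09 (SE, adjusted p = 1.61e-05 in limma).

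Of 6 further genes of the effector level, 3 were higher and 3 lower in SMC. Cdc25a, the phosphatase that CHEK1 marks for destruction, averaged 23.5 ± 0.658 FPKM in SMC, against 11.5 ± 0.646 FPKM in non-SMC, and Ppm1d, the phosphatase that ends the checkpoint, 16.9 ± 1.37 FPKM against 7.24 ± 1.31 FPKM (SD, n = 6 each). Mapkapk2, a stress kinase with a checkpoint role, fell by 1.78 on the log2 scale.

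Homologous recombination, which copies an intact sister to mend a break, had 7 of 8 members higher in SMC in the average over pairs, beside 44.7% of all rows, and Bard1 lower. The median log2 difference of its members was 0.66 in pair 1, where 7 were higher, beside 43.9% of all rows. In pair 2 the median was 0.25 and 5 were higher, beside 39.2% of all rows. Wrn (mm9 chromosome 8, 34344845 to 34495999), a RecQ helicase and exonuclease lost in Werner syndrome, had 12.2, 13.2 and 11.5 FPKM in SMC#1, against 6.54, 5.57 and 6.65 FPKM in Non-SMC#1. It had 8.33, 8.95 and 8.79 FPKM in SMC#2, against 4.21, 5.65 and 4.63 FPKM in Non-SMC#2. The classes did not overlap, and each SMC line was above its partner by a similar factor. The log2 differences were 0.88 ± 0.09 and 0.74 ± 0.09 in pairs 1 and 2 (SE, adjusted p = 1.49e-06 and 7.79e-06 in limma).

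Blm, the related helicase that dissolves joined DNA molecules, averaged 12.3 and 11.3 FPKM in SMC#1 and SMC#2, against 6.31 and 8.11 FPKM in Non-SMC#1 and Non-SMC#2. Rbbp8, whose product CtIP starts the trimming of broken ends, averaged 20.1 and 16.9 FPKM, against 11.4 and 14.2 FPKM. In both genes the rise was larger in pair 1, by 0.43 for Blm and 0.53 for Rbbp8 on the log2 scale, although neither difference between pairs was called with same-sum scaling (adjusted p = 0.209 and 0.0587).

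The BRCA complexes were uneven. Brca1 averaged 8.87 and 11.9 FPKM in SMC#1 and SMC#2, against 7.39 and 9.64 FPKM in Non-SMC#1 and Non-SMC#2, log2 differences of 0.23 and 0.28. Its pair 1 call was lost with median-ratio scaling (adjusted p = 0.0969) and quantile normalization (0.0612). Bard1, the obligate partner that completes the BRCA1 ubiquitin ligase, averaged 4.09 and 4.20 FPKM in SMC#1 and SMC#2, against 6.35 and 5.76 FPKM in Non-SMC#1 and Non-SMC#2. All of its SMC libraries lay below all non-SMC libraries, and it fell by 0.53 in pair 1 and by 0.38 in pair 2, the second call being lost with same-sum scaling (adjusted p = 0.591). Palb2, the bridge between BRCA1 and BRCA2, rose by 0.64 and 0.27 on the log2 scale in pairs 1 and 2.

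Brca2 (mm9 chromosome 5, 151325196 to 151372721), which acts at the strand exchange step, had 6.12, 7.61 and 5.45 FPKM in SMC#1, against 3.62, 3.38 and 3.86 FPKM in Non-SMC#1. It had 3.89, 5.01 and 4.41 FPKM in SMC#2, against 4.15, 6.00 and 3.94 FPKM in Non-SMC#2. Thus SMC#1 stood above its partner without overlap, and the libraries of pair 2 were interleaved. The log2 difference was 0.67 ± 0.14 in pair 1 and -0.054 ± 0.14 in pair 2, and the difference between pairs was 0.72 ± 0.19 (SE, adjusted p = 0.00578 in limma), not called with same-sum scaling (adjusted p = 0.0729). The average rise of Brca2 was not called with quantile normalization.

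Rad51c, which also acts in strand exchange, differed more by pair than by class. It averaged 7.18 FPKM in SMC#1 against 5.43 FPKM in Non-SMC#1, and 3.23 FPKM in SMC#2 against 3.27 FPKM in Non-SMC#2. SMC#1 exceeded SMC#2 by 0.95 and Non-SMC#1 exceeded Non-SMC#2 by 0.59 on the log2 scale (adjusted p = 1.76e-07 and 1.78e-05 in limma). Of 28 further recombination genes, 15 were higher and 8 lower in SMC, with a median of 0.22. Dna2, an end-trimming nuclease, averaged 21.6 ± 1.29 FPKM in SMC, against 3.67 ± 0.579 FPKM in non-SMC, and Rpa3, a subunit of the protein that coats single-stranded DNA, averaged 128 ± 11.8 FPKM in SMC, against 38.0 ± 8.25 FPKM in non-SMC (SD, n = 6 each). Rad51b fell by 0.37 in pair 1 and by 2.55 in pair 2 on the log2 scale.

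**Figure D3:**
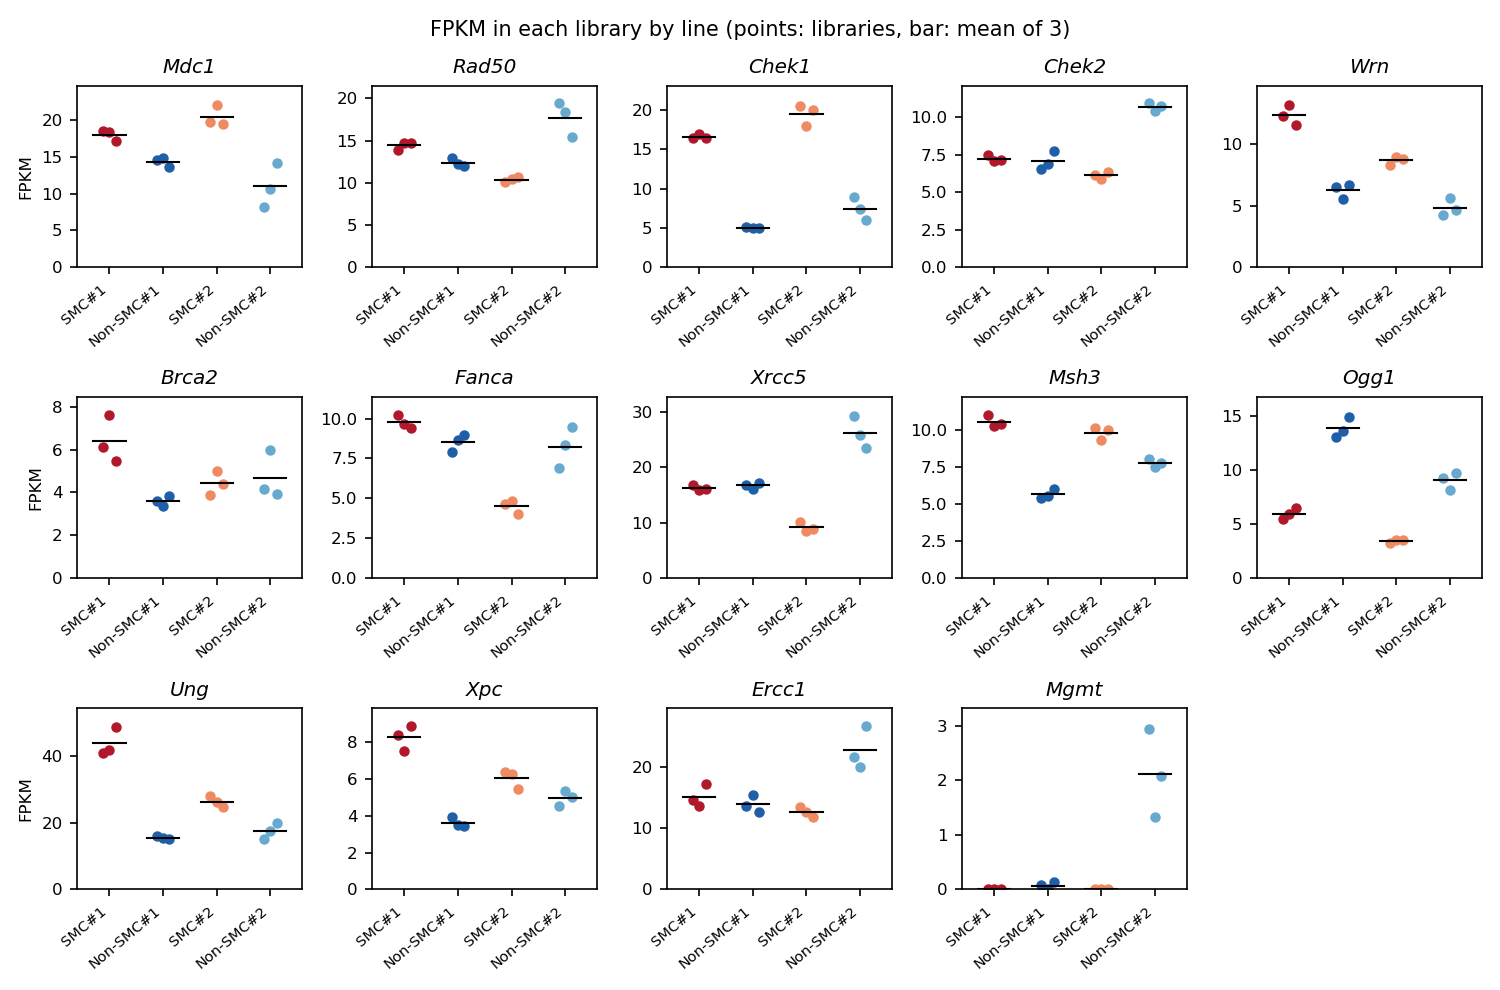
FPKM (y axis, linear from 0) of 14 members in each of 12 libraries by line (x axis, each SMC line left of its non-SMC partner); points are libraries and bars are means of 3. Chek1 is high in both SMC lines (16.5 to 20.6 FPKM) and Ogg1 low in both (3.26 to 6.46 FPKM), whereas Chek2, Xrcc5 and Ercc1 are highest in Non-SMC#2.

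The Fanconi anaemia pathway, which unhooks DNA crosslinks, showed no member called in pair 1, beside 43.9% of all rows higher and 36.5% lower. With same-sum scaling Fanca (0.31) and Fanci (0.24) were called higher there (adjusted p = 0.038 and 0.0349 in limma). In pair 2 Fancb was higher while Fanca, Fancd2 and Fanci were lower in SMC#2, beside 39.2% and 42.8% of all rows. Fanca (mm9 chromosome 8, 125792144 to 125842476), a subunit of the core ubiquitin ligase, had 10.2, 9.64 and 9.42 FPKM in SMC#1, against 7.91, 8.66 and 8.96 FPKM in Non-SMC#1. It had 4.65, 4.84 and 4.03 FPKM in SMC#2, against 6.89, 8.32 and 9.45 FPKM in Non-SMC#2. SMC#2 stood below the other 3 lines, and neither pair overlapped. Log2 differences were 0.18 ± 0.10 and -0.74 ± 0.10 in pairs 1 and 2, and the pairs differed by 0.92 ± 0.14 (SE, adjusted p = 8.06e-05 in limma). The 2 SMC lines themselves differed by 0.97. Its exons overlap those of Zfp276 on the opposite strand over 10.5% of their length, and Zfp276 had 4.501 FPKM in SMC#1 against 3.65 FPKM in Non-SMC#1, and 3.89 FPKM in SMC#2 against 4.17 FPKM in Non-SMC#2.

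Fancb, also of the core ligase, averaged 6.76 FPKM in SMC#2 against 4.25 FPKM in Non-SMC#2, a log2 difference of 0.57, and 5.81 FPKM in SMC#1 against 5.85 FPKM in Non-SMC#1. Fancd2 and Fanci, the pair that the ligase modifies, moved little. Fancd2 averaged 4.92 FPKM in SMC#2 against 5.91 FPKM in Non-SMC#2, and Fanci 4.25 FPKM against 4.94 FPKM. Both pair 2 falls were lost with median-ratio scaling (adjusted p = 0.108 and 0.174) and changed sign with same-sum scaling. Of 11 further measured genes of the pathway, 7 were higher and 2 lower in SMC, led by Ube2t, the conjugating enzyme of that reaction, with 37.4 ± 2.87 FPKM in SMC, against 11.5 ± 1.66 FPKM in non-SMC (SD, n = 6 each).

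Non-homologous end joining, which rejoins broken ends without a template, had no member higher in SMC in the average over pairs and 1 lower (Xrcc5). In that average 44.7% of all rows were higher and 42.4% lower. With same-sum scaling Xrcc6, Prkdc, Xrcc4 and Lig4 were called higher in that average, and with quantile normalization Xrcc6 and Xrcc4 were higher and Prkdc was lower. The 5 members had a median log2 difference of 0.24 in pair 1 and -0.40 in pair 2. The signed value was higher in pair 1 for 4 of the 5, beside 38.2% of all rows, and lower for 22.5% of all rows. Of these 4, Prkdc lost that call with same-sum and median-ratio scaling (adjusted p = 0.16 and 0.0504 in limma). With same-sum scaling the median of pair 2, the value of Xrcc6, was -0.039. Xrcc5 (mm9 chromosome 1, 72353995 to 72441527), the larger subunit of the Ku ring that caps ends, had 16.8, 15.95 and 16.1 FPKM in SMC#1, against 16.9, 16.05 and 17.2 FPKM in Non-SMC#1. It had 10.2, 8.61 and 8.86 FPKM in SMC#2, against 29.2, 25.7 and 23.5 FPKM in Non-SMC#2. The lines of pair 1 overlapped, and pair 2 was separated by a wide gap. The log2 difference was -0.037 (95% interval -0.22 to 0.14) in pair 1 and -1.41 (-1.59 to -1.23) in pair 2, and the pairs differed by 1.37 ± 0.12 (SE, adjusted p = 4.17e-07 in limma).

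Both lines of pair 2 stood apart from pair 1 in Xrcc5. SMC#1 exceeded SMC#2 by 0.76 and Non-SMC#1 lay below Non-SMC#2, at -0.61 (adjusted p = 4.99e-06 and 3.72e-05 in limma). Xrcc6, the other Ku subunit, averaged 48.7 FPKM in SMC#1 against 35.9 FPKM in Non-SMC#1, and 29.7 FPKM in SMC#2 against 39.5 FPKM in Non-SMC#2. Its level was above that of Xrcc5 in every line. The pairs differed by 0.83, and the fall of 0.40 in pair 2 was lost with same-sum scaling (adjusted p = 0.544) and quantile normalization (0.101). Desi1 on the opposite strand shares 7.69% of its exon length and was lower in both SMC lines, with 23.4 FPKM in SMC#1 against 35.1 FPKM in Non-SMC#1 and 18.7 FPKM in SMC#2 against 33.4 FPKM in Non-SMC#2.

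Lig4, the ligase that seals the ends, averaged 7.69 FPKM in SMC#1 against 5.52 FPKM in Non-SMC#1, and 4.36 FPKM in SMC#2 against 6.53 FPKM in Non-SMC#2. Prkdc, the kinase recruited by Ku, had the lowest level of the group, with 2.50 FPKM in SMC#1 against 1.96 FPKM in Non-SMC#1 and 2.26 FPKM in SMC#2 against 2.78 FPKM in Non-SMC#2. Its pair calls did not hold under other scalings: both were lost with median-ratio scaling (adjusted p = 0.101 and 0.157), and the sign turned in pair 1 with quantile normalization and in pair 2 with same-sum scaling. Xrcc4, the scaffold that binds LIG4, was called in neither pair (0.19 and 0.28). Same-sum scaling called Xrcc4 higher in both (0.32 and 0.62), and median-ratio scaling and quantile normalization called it higher in pair 2 (0.35 and 0.40). Among 8 further end joining genes, 1 was higher and 6 lower in SMC, with a median log2 difference of -0.51. Polm, a gap-filling polymerase of this route, averaged 4.24 ± 1.44 FPKM in SMC, against 10.4 ± 1.32 FPKM in non-SMC, while Polq, the polymerase of the alternative microhomology route, averaged 3.96 ± 0.641 FPKM in SMC, against 2.48 ± 0.484 FPKM in non-SMC (SD, n = 6 each).

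**Figure D4:**
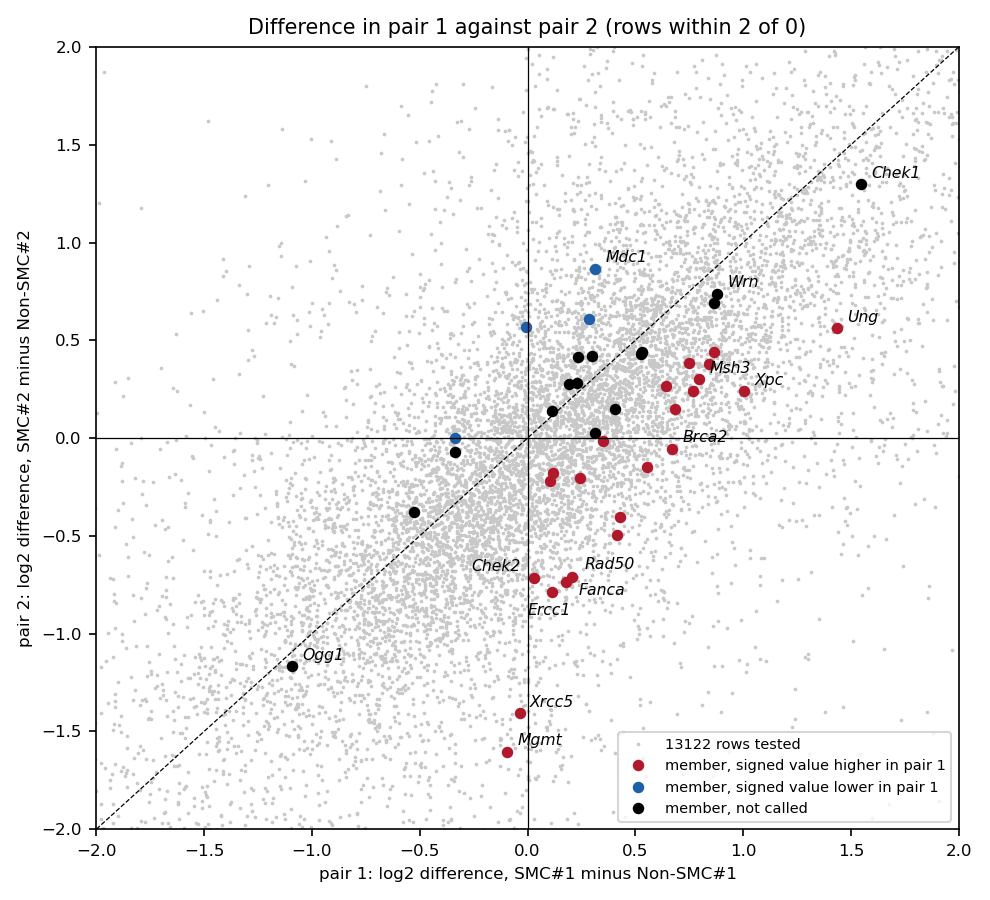
Log2 difference, SMC minus non-SMC, in pair 1 (x axis) against pair 2 (y axis) for 13122 rows (gray; those within 2 of 0 are drawn) and the 42 members (large points, colored by the test of the difference between pairs; dashed line, equal differences; members with all library values given are named). Chek1, Wrn and Ogg1 lie near the line, and Rad50, Chek2, Fanca, Ercc1 and Xrcc5 lie below it with pair 2 values of -1.41 to -0.71. Mgmt (-1.60 in pair 2) also lies below it, but it passed the filter through Non-SMC#2 alone.

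Mismatch repair, which corrects replication errors, was the one group of more than 1 gene with every member called higher in both pairs. It has 3 members, and 32% of all rows were higher in both pairs. Msh3 (mm9 chromosome 13, 92981836 to 93124958), which binds insertion loops, had 11.03, 10.2 and 10.4 FPKM in SMC#1, against 5.40, 5.54 and 6.04 FPKM in Non-SMC#1. It had 10.1, 9.30 and 10.0 FPKM in SMC#2, against 8.07, 7.49 and 7.77 FPKM in Non-SMC#2. The SMC lines were close to each other and above both non-SMC lines. Log2 differences were 0.80 ± 0.06 and 0.30 ± 0.06 in pairs 1 and 2, and the pairs differed by 0.50 ± 0.09 (SE, adjusted p = 0.000347 in limma).

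Msh6, which reads base mismatches, averaged 47.6 and 46.4 FPKM in SMC#1 and SMC#2, against 32.7 and 34.2 FPKM in Non-SMC#1 and Non-SMC#2. Pms2, a nuclease subunit of this route, averaged 9.79 and 11.7 FPKM, against 6.47 and 8.38 FPKM. For both, the pairs rose alike: 0.53 and 0.43 for Msh6 and 0.53 and 0.44 for Pms2. Of the 4 further genes, 3 were higher and 1 lower in SMC. The lower gene was Pms1, with a log2 difference of -0.24 (adjusted p = 0.00467 in limma), not called with same-sum scaling. Mlh3, another gene of this route, averaged 5.01 ± 0.296 FPKM in SMC, against 1.79 ± 0.934 FPKM in non-SMC (SD, n = 6 each).

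In base excision and single-strand break repair, Ung, Xrcc1, Parp1 and Parp2 were higher in SMC in the average over pairs, and Ogg1 and Lig3 were lower. Of all rows, 44.7% were higher and 42.4% lower. Ung (mm9 chromosome 5, 114580444 to 114589330), the glycosylase that removes uracil from DNA, had 41.0, 41.9 and 48.7 FPKM in SMC#1, against 16.04, 15.5 and 15.2 FPKM in Non-SMC#1. It had 27.9, 26.3 and 24.7 FPKM in SMC#2, against 15.2, 17.6 and 20.001 FPKM in Non-SMC#2. SMC#1 was the highest line by a clear margin, and the classes did not overlap. The log2 difference was 1.43 ± 0.10 in pair 1 and 0.56 ± 0.10 in pair 2, and the pairs differed by 0.87 ± 0.14 (SE, adjusted p = 0.000112 in limma).

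Ogg1, the glycosylase that removes oxidized guanine, ran the other way. Ogg1 (mm9 chromosome 6, 113276970 to 113284180) had 5.46, 5.99 and 6.46 FPKM in SMC#1, against 13.1, 13.6 and 14.9 FPKM in Non-SMC#1. It had 3.26, 3.57 and 3.58 FPKM in SMC#2, against 9.29, 8.19 and 9.71 FPKM in Non-SMC#2. Each SMC line held less than its partner with no overlap, and the log2 differences of -1.10 ± 0.08 and -1.17 ± 0.08 were nearly equal (SE, adjusted p = 2.93e-08 and 1.43e-08 in limma). No strand setting is stated for these values, and 10.6% of the exon length of Ogg1 lies across exons of Camk1 on the opposite strand. Camk1 averaged 9.92 and 2.00 FPKM in SMC#1 and SMC#2, against 42.8 and 8.32 FPKM in Non-SMC#1 and Non-SMC#2, and its part in the values of Ogg1 was not tested.

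Parp1 averaged 73.9 and 69.5 FPKM in SMC#1 and SMC#2, against 60.5 and 45.3 FPKM in Non-SMC#1 and Non-SMC#2, and it rose more in pair 2 (0.61) than in pair 1 (0.28). Parp2, its lesser relative, rose by 0.13 in the average and was called in neither pair alone. Same-sum scaling called Parp2 higher in both pairs (0.25 and 0.49), as did quantile normalization (0.19 and 0.34), and median-ratio scaling called it in pair 2 (0.21). Xrcc1, the scaffold that gathers the enzymes of this route, averaged 35.5 and 33.2 FPKM, against 19.0 and 20.2 FPKM, with log2 differences of 0.86 and 0.69. Lig3, the ligase that XRCC1 carries, did not share the calls of its scaffold. It averaged 11.4 and 11.5 FPKM in SMC#1 and SMC#2, against 14.7 and 12.2 FPKM in Non-SMC#1 and Non-SMC#2. The average fall of Lig3 by 0.20 turned to 0.037 with same-sum scaling, and 25.1% of its exon length is shared with Rffl on the opposite strand. Rffl averaged 1.88 FPKM in SMC#1 against 3.31 FPKM in Non-SMC#1, and 4.23 FPKM in SMC#2 against 3.48 FPKM in Non-SMC#2.

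Among 17 further measured genes of this group, 12 were higher and 4 lower in SMC. Mbd4, a glycosylase for thymine opposite guanine, averaged 5.69 ± 0.997 FPKM in SMC, against 3.28 ± 0.318 FPKM in non-SMC. Parp3, a smaller relative of Parp1, averaged 0.160 ± 0.0274 FPKM in SMC, against 7.06 ± 2.09 FPKM in non-SMC, and Nthl1, a glycosylase for oxidized pyrimidines, averaged 3.67 ± 0.662 FPKM in SMC, against 8.26 ± 1.23 FPKM in non-SMC (SD, n = 6 each).

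Nucleotide excision repair, which cuts out bulky and ultraviolet lesions, had 3 of 5 members higher in SMC in the average over pairs (Xpc, Ddb2 and Ercc4) and Ercc1 lower. Among all rows, 44.7% were higher and 42.4% lower. Xpc (mm9 chromosome 6, 91439302 to 91465882), the first sensor of distorted DNA, had 8.37, 7.54 and 8.86 FPKM in SMC#1, against 3.91, 3.47 and 3.43 FPKM in Non-SMC#1. It had 6.41, 6.26 and 5.44 FPKM in SMC#2, against 4.54, 5.32 and 5.01 FPKM in Non-SMC#2. The gap was wide in pair 1 and narrow in pair 2, where the lowest SMC#2 library lay just above the highest Non-SMC#2 library. Log2 differences were 1.01 ± 0.08 and 0.24 ± 0.08, and the pairs differed by 0.77 ± 0.12 (SE, adjusted p = 8.41e-05 in limma).

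Ddb2, which hands ultraviolet lesions to XPC, averaged 3.23 and 2.83 FPKM in SMC#1 and SMC#2, against 1.37 and 1.95 FPKM in Non-SMC#1 and Non-SMC#2. Acp2 on the opposite strand shares 23.8% of its exon length and averaged 6.85 FPKM in SMC, against 8.17 FPKM in non-SMC. Xpa, which verifies the lesion, rose by 0.55 in pair 1 and had -0.15 in pair 2 (adjusted p = 0.375 in limma), where 1 Non-SMC#2 library held 16.5 FPKM. Without that library, Non-SMC#2 replicate 1, the average difference of Xpa was 0.31 and called (adjusted p = 0.000165).

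Ercc1 and Ercc4 encode the 2 subunits of the nuclease that cuts on the 5′ side of the lesion. They did not share a call in either pair, and the difference between them was not tested. With same-sum scaling both were called higher in pair 1. Ercc1 (mm9 chromosome 7, 19930420 to 19941873) had 14.6, 13.7 and 17.2 FPKM in SMC#1, against 13.6, 15.4 and 12.7 FPKM in Non-SMC#1. It had 13.5, 12.7 and 11.9 FPKM in SMC#2, against 21.6, 19.9 and 26.7 FPKM in Non-SMC#2. Pair 1 overlapped, and Non-SMC#2 stood above the other lines. The log2 difference was 0.12 (95% interval -0.13 to 0.36) in pair 1 and -0.79 (-1.03 to -0.54) in pair 2, with a difference between pairs of 0.90 ± 0.16 (SE, adjusted p = 0.000312 in limma). Ercc4 averaged 3.65 FPKM in SMC#1 against 2.51 FPKM in Non-SMC#1, and 2.42 FPKM in SMC#2 against 2.10 FPKM in Non-SMC#2, log2 differences of 0.40 and 0.15.

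Of 19 further excision genes, 6 were higher and 9 lower in SMC, with a median of -0.073. Ddb1, the partner of DDB2, averaged 96.7 ± 5.40 FPKM in SMC, against 229 ± 26.4 FPKM in non-SMC, and Ercc3, a helicase of the general transcription factor that opens the DNA, averaged 9.44 ± 1.33 FPKM in SMC, against 21.1 ± 0.656 FPKM in non-SMC (SD, n = 6 each).

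Direct reversal was represented by Mgmt (mm9 chromosome 7, 144086294 to 144319871), the enzyme that takes alkyl groups off guanine and by which tumors resist temozolomide. It was listed at 0 in every SMC#1 and SMC#2 library. Non-SMC#1 had 0.0735, 0 and 0.132 FPKM, and Non-SMC#2 had 2.93, 1.32 and 2.08 FPKM. Non-SMC#2 was thus the sole line with a level above 1 FPKM, and Mgmt entered the test through that line. Alkbh3, an oxidative dealkylase outside the members, averaged 5.98 ± 0.480 FPKM in SMC, against 18.6 ± 2.05 FPKM in non-SMC (SD, n = 6 each).

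Partners in 1 complex or step did not always share a call in both pairs: Rad50 beside Nbn and Mre11a, Brca1 beside Bard1, Xrcc5 beside Xrcc6, Xrcc1 beside Lig3, and Ercc1 beside Ercc4. Fancd2 and Fanci did share theirs. Differences between partners were not tested. In the same libraries, 27 genes of cell division had 9 higher and 11 lower in SMC (median log2 difference 0.050), with Mki67 higher (75.4 ± 9.91 FPKM in SMC, against 43.6 ± 11.9 FPKM in non-SMC) and Birc5 lower (81.9 ± 9.08 FPKM, against 130 ± 23.2 FPKM). Their part in the results was not tested. Of 22 p53 target genes, 8 were higher and 10 lower, with a median of -0.0056. Cdkn1a, which encodes the cyclin-dependent kinase inhibitor p21, averaged 29.0 ± 7.47 FPKM in SMC, against 5.63 ± 1.91 FPKM in non-SMC, and the death receptor gene Tnfrsf10b 0.309 ± 0.0411 FPKM, against 16.1 ± 4.69 FPKM (SD, n = 6 each). Translesion synthesis, which copies past damage, had 7 of 11 genes higher and 3 lower. Rev3l, which encodes the catalytic subunit of 1 of its polymerases, averaged 13.8 ± 2.45 FPKM in SMC, against 3.80 ± 0.893 FPKM in non-SMC (SD, n = 6 each). Polh, the gene of another polymerase of this route, had a log2 difference of -1.12. Over the 122 further repair genes tested in all lists, 65 were higher and 40 lower in SMC, beside 44.7% and 42.4% of all rows. Their median log2 difference was 0.21, beside 0.024 over all rows.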

How the data were processed

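Total RNA of 12 libraries was sequenced by the authors as 150 bp paired-end reads (Illumina NovaSeq), mapped with STAR 2.6.1b to a genome the notes call mm10, and tested with DESeq2. The deposited values are FPKM per gene row and library; which tool made them is not stated. All 42 members lay on the GRCm38 chromosome of their symbol but 8 overlapped its position there, so the table's positions are taken as mm9 (1-based). The paper assigns this series to another experiment, and the labels were followed.

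Rows reaching 1 FPKM in 3 or more libraries were fitted on log2(FPKM + 1) with limma 3.58.1 (trend, robust) in R 4.3.3, with a mean per line. Tests were two-sided. Because the table holds FPKM, no count model was run. Depth was estimated from low values of 2174 genes with 1 transcript and an assumed fragment of 300 bp. A value of 0 can be a failed estimate, so genes are described as listed at 0. FPKM is a share of a library. Exon overlaps were read from the GENCODE annotation.

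Each library's value is given for 14 members: in each group, the largest difference called alike in both pairs and the largest difference between pairs. At most 2 genes per direction are named from other lists. Members and lists were chosen with earlier results of these data known. The fit was tested on simulated data. Alternatives were the pseudocount, the filter, 3 scalings, the replicate number as a block, the moderation options, the line as the unit, and leaving out each library.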

Additional observations from a re-analysis of the deposited data

Results flagged for a closer look

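In 2 genes a single library stood apart from the other 5 of its class by Dixon's ratio, the gap to the nearest library over the whole range. In samples of 1 population chance makes the ratio this large in about 1 in 20 groups. It was computed for all 42 members in each class, so some groups would pass by chance. Each class also holds 2 lines, so that rate may not hold here. Brca2 had 6.00 FPKM in Non-SMC#2 replicate 2, with the next non-SMC library at 4.15 FPKM (ratio 0.704). Xpa had 16.5 FPKM in Non-SMC#2 replicate 1, with the next at 11.1 FPKM (ratio 0.733).

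For 27 members the SMC minus non-SMC log2 difference differed between the pairs by the interaction test (limma, adjusted p under 0.05), given here as the signed value of pair 1 less that of pair 2. Of all rows, 38.2% had a higher signed value in pair 1 and 22.5% a lower one. A positive value can come from a fall in pair 2. It was over 0.8 for Xrcc5 (1.37), Rad50 (0.92), Fanca (0.92), Lig4 (0.91), Ercc1 (0.90), Ung (0.87) and Xrcc6 (0.83). It was lower, and still positive, for Xpc (0.77), Chek2 (0.74), Brca2 (0.72), Xpa (0.70), Topbp1 (0.54), Rbbp8 (0.53), Msh3 (0.50), Ddb2 (0.46), Prkdc (0.45), Blm (0.43), Palb2 (0.38), Atm (0.37), Rad51c (0.36), Fancd2 (0.32) and Fanci (0.30). It was negative for Fancb (-0.58), Mdc1 (-0.55), Nbn (-0.33) and Parp1 (-0.32). When single libraries were left out, Atm and Nbn kept this call in 3 of 12 fits, Mdc1 in 9, Fanci in 10 and Fancd2 in 11. The other members named so far were called in all 12. Same-sum scaling ended the calls of Atm, Palb2, Brca2, Rad51c, Rbbp8, Blm, Fancd2, Fanci and Prkdc. Median-ratio scaling ended those of Atm, Palb2, Rad51c, Fancd2, Fanci and Prkdc. Mgmt had 1.51, which its passage of the filter through Non-SMC#2 alone had fixed in direction.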

How the results depend on the processing

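With the line as the unit, the members higher and lower in SMC fell to 1 and 1, and 32 members lost their call. Of the genes named from other lists, that unit kept the calls of H2afx, Mapkapk2, Dna2, Rpa3, Ube2t, Parp3, Ddb1, Alkbh3, Cdkn1a, Tnfrsf10b and Rev3l. It ended those of the others, among them Mre11a, Polm, Polq and Mlh3 (adjusted p = 0.151, 0.0671, 0.328 and 0.116 in limma). Scaled to the same sum, 4 members were lower in SMC over both pairs and 7 in pair 2. That scaling reversed Nbn (0.071), Fanci (0.18), Lig4 (0.18) and Lig3 (0.037), and quantile normalization reversed Prkdc (-0.22) and ended the calls of Nbn, Brca2, Rad51c and Ercc4. The pseudocount of 0.1, no filter, median-ratio scaling and the plain moderation options changed no member's call in the average over pairs, and neither did the stricter filter in the 41 members it kept; calls within a pair did change. Leaving out 1 library gave 24 to 26 members higher and 9 to 10 lower. The replicate numbers did not pair the samples: same-numbered libraries correlated at -0.382 to 0.355, and 5 of 12 libraries correlated best with their own number. With the number as a replicate block, 25 members were higher and 10 lower, and Atr was called (0.17). Lost there were Mdc1 in pair 1 (adjusted p = 0.0565), Fanci in pair 2 (0.0511) and the pair difference of Nbn (0.0574). With 2 lines per class, and libraries that may not be separate cultures, differences between lines and between classes are set by few samples. The fit used FPKM, and the depth behind a value is an estimate.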
